A study of Bos taurus with 12 samples.

Results

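The low-level tender-specific regions are places in the cattle genome that carried a methylated-DNA peak in the low eluate of both tender animals and of neither tough animal. The study captured methylated DNA from the longissimus muscle of Angus steers of about a year of age that had been fed alike, 2 with tender and 2 with tough beef, and released it from the capture protein in 3 serial eluates named high, medium and low. Libraries are named by eluate and beef, so that LTE_1 and LTE_2 are the low eluate of tender beef, LTO_1 and LTO_2 that of tough beef, and MTE, MTO, HTE and HTO the medium and high eluates, with 2 replicates in each of the 6 conditions. No animal carried a treatment or an introduced allele. Tender and tough had been assigned from the shear force of the meat, with the 2 animals of each kind drawn at random from 4, and the groups they came from differed in the crude fat of the meat as well, so toughness and other traits of the animals cannot be told apart. The sources used here do not all say in the same way which salt step gave which methylation level, and the words high, medium and low stand below for the labels of the eluates.

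Peaks of the 4 low libraries that shared 1 bp or more on chromosomes 1 to 29 were joined, which gave 49965 low regions on bosTau8. Of these, 250 had a peak in both LTE and neither LTO library and form the set described here, 0.500% of all low regions (95% Wilson interval 0.442 to 0.566%). The set was therefore chosen by measured values, the presence of peaks in the 4 low libraries, and everything said of those libraries is a description without a test. The medium and high libraries took no part in the choice. Regions are given by position only, since no sequence or gene annotation of bosTau8 was used here.

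A methyl-CpG binding domain holds double-stranded DNA in proportion to the number and density of its methylated CpG sites, and a rising salt concentration releases the captured fragments in steps. In vertebrate tissues most CpG sites outside CpG islands are methylated, and CpG methylation at promoters is generally associated with low transcription. A peak is a place where the fragments of a library pile up above their local background, so a region without a peak may still be methylated, and a region can have peaks in more than one eluate.

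Most regions that both tender animals shared were also found in tough animals. A peak in both LTE libraries was present in 6019 low regions, of which 5186 (86.2%) had a peak in both LTO libraries, 583 (9.69%) in 1 of them and 250 (4.15%) in neither. The numbers of low regions with a peak were 9202 in LTE_1, 16482 in LTE_2, 27629 in LTO_1 and 28079 in LTO_2, so both tender libraries held fewer than either tough library. The reverse set, with a peak in both LTO and neither LTE library, was larger, at 4628 regions, and 3747 regions had a peak in 1 library of each beef. The depth after removal of duplicates was 5770411 and 7165381 tags in LTE_1 and LTE_2, and 7981292 and 7212507 in LTO_1 and LTO_2. The part of depth and of peak number in the size of the set was not tested. With the 9555 strongest peaks taken from each of the 4 low libraries, the set held 492 regions and the reverse set 579, and 103 of the 250 regions (41.2%) were among the 492.

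The tender-specific regions carried peaks of few tags in the libraries that defined them, about as small as those of other regions that part of the low libraries shared. The pileup, the number of overlapping tags at the summit, ranged from 5 to 221 in LTE_1 and from 5 to 230 in LTE_2, with a median of 9 in each. Over all other low regions with a peak in the library, the median was 16 in LTE_1 and 10 in LTE_2, where regions with a peak in all 4 low libraries had 78 and 97. It was 8 and 9 over regions with a peak in 1 low library of each beef, and 9 and 10 over regions with a peak in 3 low libraries. The peak was at the shortest length in its list for 87 regions (34.8%) in LTE_1 and for 70 (28.0%) in LTE_2. The joined regions were 155 to 639 bp long, with a median of 220.5 bp, against 188 bp over all other low regions and 415.5 bp over regions with a peak in all 4 low libraries. Scaled to 1000000 tags of depth, the median LTE_2 to LTE_1 pileup ratio was 0.85, with 242 of the 250 regions within 2-fold. The rule asked for a peak in both libraries, and most pileups were small (quartiles 8 and 11 in LTE_1, 8 and 12 in LTE_2). The ratio is therefore no measure of agreement between the 2 tender animals.

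The members near the threshold show how little can separate a region inside the set from one outside it. The lower −log10 q of the 2 LTE peaks ranged from 2.51 to 16.4 with a median of 4.99. The region just inside, at chr3:13989431-13989655, had pileups of 9 and 5 in LTE_1 and LTE_2 and −log10 q of 6.76 and 2.51. Just outside lay chr8:112743980-112744251, with LTE pileups of 10 and 14, which had a peak in LTO_1 with a pileup of 9 and a −log10 q of 2.61. Also just outside was chr5:105165179-105165585, where the LTE pileups were 7 and 9 and LTO_2 had a pileup of 5. The deciding LTO peaks of the 583 regions with a peak in 1 LTO library had −log10 q of 2.61 to 44.6, with a median of 6.95.

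The set was divided by the fold enrichment of its peaks. For 233 regions the lower fold enrichment of the 2 LTE peaks was 3.05 to 9.26, at median pileups of 9 in each library. A typical peak of these regions thus stood on a low background, but this did not hold for all of them. The region with the lowest value of the 233, 3.05, also had their highest lower pileup, 89 tags. The division is therefore a cut by fold enrichment, and the pileups on its sides overlapped. For the other 17 regions (6.80%) it was 1.52 to 2.32, at pileups of 62 to 221 in LTE_1 and 77 to 230 in LTE_2, so that many tags lay on a background that was itself high. These 17 regions lay close to tough peaks: the nearest LTO peak was 72 to 2039 bp away, and within 1 kb for 13 of them. Of the 17, 5 lay on chromosome 27 within 267 kb (chr27:28650768-28917338), 3 on chromosome 8 within 121 kb and 2 on chromosome 3 within 111 kb. The others were apart, with 1 each on chromosomes 1, 5, 6, 24 and 29 and 2 far from each other on chromosome 7. Among the 233, the median distance to the nearest LTO peak was 13044 bp, with 39 within 1 kb and 133 beyond 10 kb. The split at a fold enrichment of 3 was made after the values were seen.

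**Figure D1:**
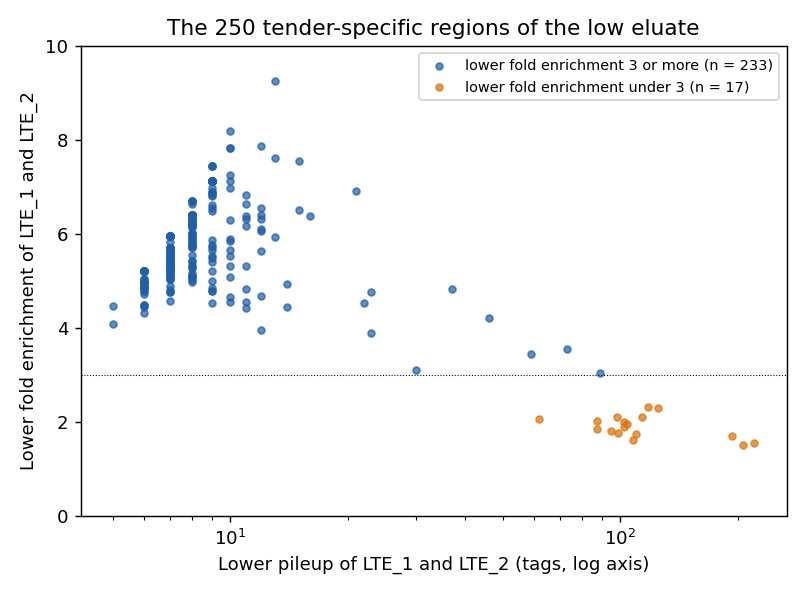
Each point is a tender-specific region, with the lower pileup of LTE_1 and LTE_2 (tags, log axis) against the lower fold enrichment of the pair, and the dotted line is at 3. The 17 regions under the line have lower pileups of 62 to 221, and the 233 above it have lower pileups of 5 to 89.

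In the medium eluate the tender-specific regions carried a peak more often in tender than in tough animals. Of the 250 regions, 82 (32.8%) had a peak in MTE_1, 75 in MTE_2, 25 in MTO_1 and 36 (14.4%) in MTO_2. Both tender libraries were above both tough libraries. The mean share was 31.4% ± 1.98 in tender and 12.2% ± 3.11 in tough (SD, n = 2 each), 2.57 times as high, and the difference of 19.2 percentage points had an exact two-sided permutation p of 0.333, the smallest that 2 against 2 libraries allow. The medium tender libraries were also the deeper ones, with 6589423 and 6886676 tags against 6010993 and 5969045. Their lists held more peaks on the autosomes too, 33562 and 35688 in MTE_1 and MTE_2 against 23982 and 24797 in MTO_1 and MTO_2. With equally many peaks from each library of an eluate, in all 3 eluates, the set held 492 regions. Its mean medium share was 40.8% in tender and 32.0% in tough, a ratio of 1.27. The difference was then 8.74 percentage points (exact permutation p = 0.333). Because the regions also changed, this does not isolate peak number, and the part of depth was not tested.

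The same direction held for low regions in general, so the tender-specific regions were set against them. All other low regions had a medium peak in 41.0% ± 0.280 of cases in tender and 31.2% ± 1.06 in tough (SD, n = 2 each), a ratio of 1.31. The tender minus tough difference of the tender-specific regions exceeded theirs by 9.40 percentage points, and the ratio exceeded theirs by 0.97 on the log2 scale, each with an exact permutation p of 0.333. Regions with a peak in 1 low library of each beef gave 46.3% in tender and 29.2% in tough, and the difference of the tender-specific regions was 2.19 percentage points larger (exact permutation p = 0.667). The tough-specific regions of the low eluate had medium peaks more often in tender animals too, in 63.5% against 50.1%. Regions with a peak in 1 low library only, 32532 of the 49715 other low regions, gave 25.3% in tender and 16.9% in tough. Without LTE_1, the set held 5610 regions and its medium difference was 2.59 percentage points smaller than that of the other regions, while on the ratio scale it stayed larger, by 0.58 on the log2 scale. With equally many peaks from each library of an eluate, in all 3 eluates, the excess on that scale was 0.23.

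**Figure D2:**
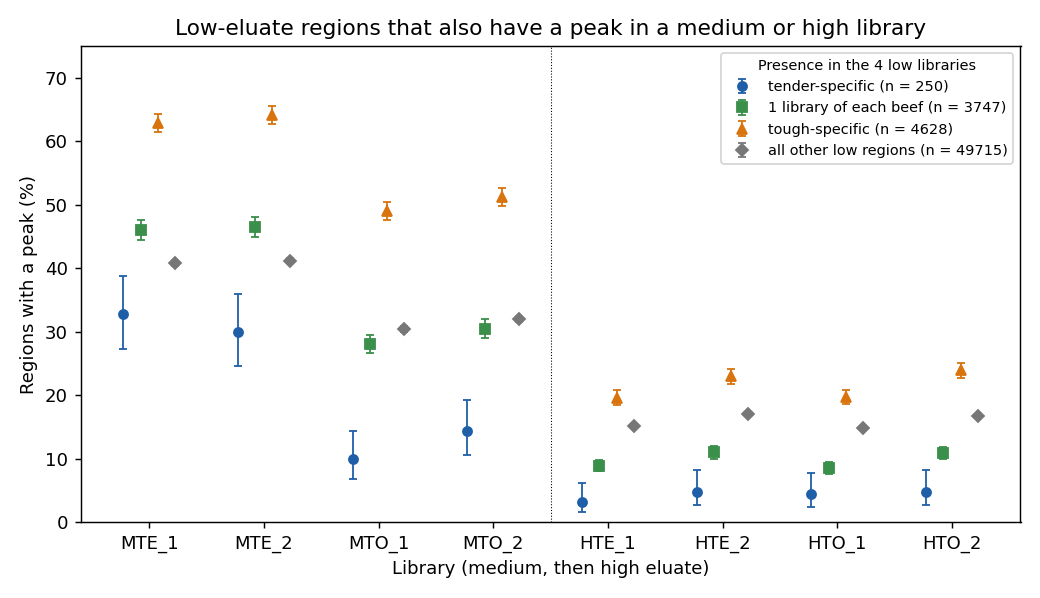
The share of regions with a peak (%) is plotted for each medium and high library, for tender-specific regions, regions with a peak in 1 low library of each beef, tough-specific regions and all other low regions, with 95% Wilson intervals that cover counting error only. The tender-specific points stand for 82 and 75 of the 250 regions in the MTE libraries, for 25 and 36 in the MTO libraries and for 8 to 12 in the high libraries, below the 3 other classes shown in every library. Regions with a peak in 1 low library only are not shown as a class of their own.

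In the high eluate the tender-specific regions rarely had a peak and no direction between the beefs was seen. A peak was present in 8 regions (3.2%) in HTE_1, 12 (4.8%) in HTE_2, 11 (4.4%) in HTO_1 and 12 (4.8%) in HTO_2, and the groups overlapped. The means were 4.0% ± 1.13 in tender and 4.6% ± 0.283 in tough (SD, n = 2 each), a difference of -0.6 percentage points (exact permutation p = 1.0). The sign of this difference turned under several alternatives, among them each low library left out. Over all other low regions the share was 15.2 and 17.0% in HTE and 14.8 and 16.7% in HTO.

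The medium eluate held peaks in tender-specific regions far more often than the high eluate. The mean share was 21.8% ± 11.3 over the medium libraries and 4.3% ± 0.757 over the high libraries (SD, n = 4 each), with no overlap, and the exact permutation p was 0.0286, the smallest that 4 against 4 allow. With replicate numbers paired across eluates (a replicate block) the p was 0.125, the smallest that 4 pairs allow, and without any of the high libraries it was 0.0571 to 0.0857. All other low regions differed in the same direction, 36.1% against 15.9%. As a ratio to those regions, the tender-specific share was 0.604 at the medium and 0.270 at the high level, which differed with an exact permutation p of 0.0286 over 4 against 4 libraries, and of 0.125 with the replicate block. The eluates were taken serially from each capture, so the libraries of the 2 levels come from the same 4 animals and the unpaired p treats them as separate. As a difference from the other low regions, the tender-specific share was -14.3 percentage points at the medium and -11.6 at the high level. The levels then differed in the opposite direction (exact permutation p = 0.4), so which level stood nearer to the other regions rested on the scale. That p was 0.0286 without LTE_1 (a medium minus high excess of -11.9 percentage points) and without LTE_2 (-9.43). Between libraries of the same replicate number, the medium minus high difference was 29.6 and 25.2 percentage points in tender and 5.6 and 9.6 in tough beef (exact permutation p = 0.333, the smallest possible). Over the 13 permutation tests computed here, Benjamini-Hochberg adjustment left no value under 0.05, the smallest being 0.186.

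A difference between the beefs that was complete in both eluates was rare. A peak in both MTE and neither MTO library was found in 20 of the 250 regions (8.0%, Wilson interval 5.24 to 12.0%), beside 4.90% of all low regions and 8.43% of regions with a peak in 1 low library of each beef. The reverse, both MTO and neither MTE library, was found in 2 regions (0.8%), beside 0.708% of all low regions. At the high level, both tender and neither tough libraries had a peak in 1 region, beside a share of 0.598% of all low regions, and the reverse in 1 region, beside 0.364%. These shares lay near the background except for the medium tender pattern, whose share was close to that of the regions with 1 low library of each beef. Counted less strictly, 73 regions (29.2%) had a peak in at least 1 MTE and no MTO library, against 15.0% of all other low regions and 24.3% of regions with 1 low library of each beef, and 8 (3.2%) in at least 1 MTO and no MTE library, against 3.45%.

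Tender-specific regions had peaks in few of the medium and high libraries. None of the 8 had a peak in 132 regions (52.8%, Wilson interval 46.6 to 58.9%), against 47.3% of all other low regions. That share was 62.5% over regions with a peak in 1 low library only and 37.9% over those with 1 library of each beef. It was 21.4% over tough-specific regions, 15.8% over regions with 3 low libraries and 3.80% over those with all 4. Of the 132 tender-specific regions, 48 had a peak in the merged MTE list and 12 in the merged MTO list, and 84 had one in none of the 4 merged medium and high lists. These counts were not made for the other low regions without a peak in the 8 libraries. The merged MTE list also held more autosomal peaks, 84367 against 55808 in MTO. Of the 8 libraries, 1 had a peak in 58 tender-specific regions, 2 in 26, 3 in 14, 4 in 8 and 5 to 8 in 12. All 8 libraries had one in 2 regions (0.8%), against 11.1% of all other low regions. Peaks in the medium eluate alone were found in 97 regions (38.8%, against 31.0% elsewhere), in the medium and high eluates in 19 (7.6%, against 21.5%) and in the high eluate alone in 2. By beef, 70 regions had a peak in tender libraries alone, 8 in tough libraries alone and 40 in both. These counts over both eluates were not made for the other low regions. In the medium eluate those also leaned to tender, with a peak in at least 1 MTE and no MTO library in 15.0% and the reverse in 3.45%. No tender-specific region had a peak in all 4 tender and none of the tough medium and high libraries.

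**Figure D3:**
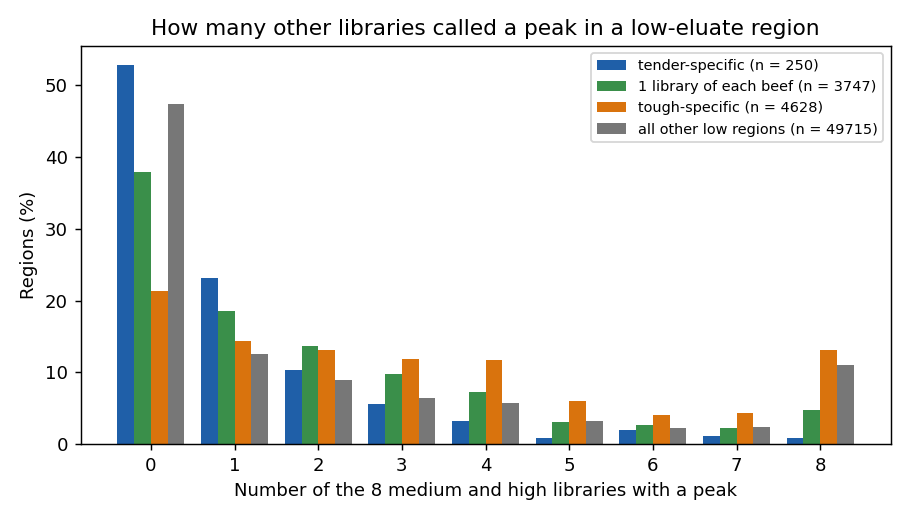
Bars give the share of regions (%) by the number of the 8 medium and high libraries with a peak, for the same 4 classes of low regions. Among tender-specific regions 52.8% are at 0 libraries and 0.8% at 8, and among all other low regions 47.3% and 11.1%.

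Where a tender-specific region had a medium peak, the direction of its height between the beefs depended on how it was measured. Scaled to 1000000 tags of depth, the median pileup of these peaks was 1.67 in MTE_1, 1.45 in MTE_2, 1.83 in MTO_1 and 1.76 in MTO_2, over different regions in each library, so both tough medians lay above both tender ones. In the 15 regions with a peak in all 4 medium libraries, the median pileup per 1000000 tags was 2.28 and 2.32 in MTE and 2.33 and 2.18 in MTO, and the values overlapped. The median log2 ratio of tender to tough was 0.03 (exact permutation p = 1.0). It was 0.37 with peaks of a fold enrichment of at least 3 alone and 0.27 with equally many peaks from each library of an eluate. Without scaling it was 0.20, and with fold enrichment in place of pileup 0.13 (exact permutation p = 0.333 for each of these 4). In 3 other alternatives, each with 1 library left out, it was below 0. All 4 high libraries had a peak in 4 regions, with medians of 9.47 and 10.8 in HTE and 7.31 and 7.79 in HTO on the same scale, a log2 ratio of 0.42 (exact permutation p = 0.333). With peaks of a fold enrichment of at least 3 alone, that ratio was -0.29.

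The strength of the low peak was not matched by a higher share of medium peaks. Among the 233 regions of higher enrichment, those with a lower LTE pileup of up to 8 (145 regions) had a peak in MTE_1 in 36.6% and in MTE_2 in 33.1% of cases, and 16 and 25 of them had one in MTO_1 and MTO_2. Those above 8 (88 regions) gave 30.7 and 27.3% in MTE, and 7 and 9 of them had a peak in MTO_1 and MTO_2. In the tender high libraries the order was the other way, on few regions: 2 and 3 (1.38 and 2.07%) of the weaker and 5 and 8 (5.68 and 9.09%) of the stronger. In HTO_1 and HTO_2 a peak was present in 4 and 6 of the weaker (2.76 and 4.14%) and 6 and 4 of the stronger (6.82 and 4.55%). The 17 regions of low enrichment had a peak in 2 and 3 cases in the MTE libraries and in 2 and 2 cases in the MTO libraries.

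The authors also called peaks on the merged reads of each condition, and there most tender-specific regions had a peak in tough beef as well, though less often than low regions in general. The merged LTE list covered 249 of the 250 regions (99.6%) and the merged LTO list 194 (77.6%, Wilson interval 72.0 to 82.3%), against 60.7 and 92.0% of all other low regions. The merged LTO peaks in these regions had a median pileup of 11 and a median fold enrichment of 5.55. For comparison, 59.7% of the tough-specific regions had a peak in the merged LTE list. Thus a region without a peak in LTO_1 and LTO_2 was in most cases one where the tough tags passed the threshold when the 2 animals were pooled.

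The merged lists give a ratio only for regions with a peak in both lists of an eluate. The 56 regions without a merged LTO peak are left out of the low ratio. The 75 with a merged MTE but no merged MTO peak are left out of the medium ratio. Neither ratio is thus a size for the whole set. In the 194 regions with a peak in both merged low lists, the pileup per 1000000 tags was higher in LTE for 182, with a median ratio of 1.55 (log2 0.63, quartiles 0.38 and 0.92) and 37 regions above 2-fold. These reads include those that chose the regions, so this is a description of the 194 regions without a test. The median log2 ratio was -0.19 over all other low regions and -0.62 over the tough-specific ones. In the medium eluate, 89 regions had a peak in both merged lists, with a median log2 ratio of 0.02 and 46 of the 89 above 0, against -0.13 over all other low regions. In the high eluate it was -0.12 over 16 regions, against -0.31.

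**Figure D4:**
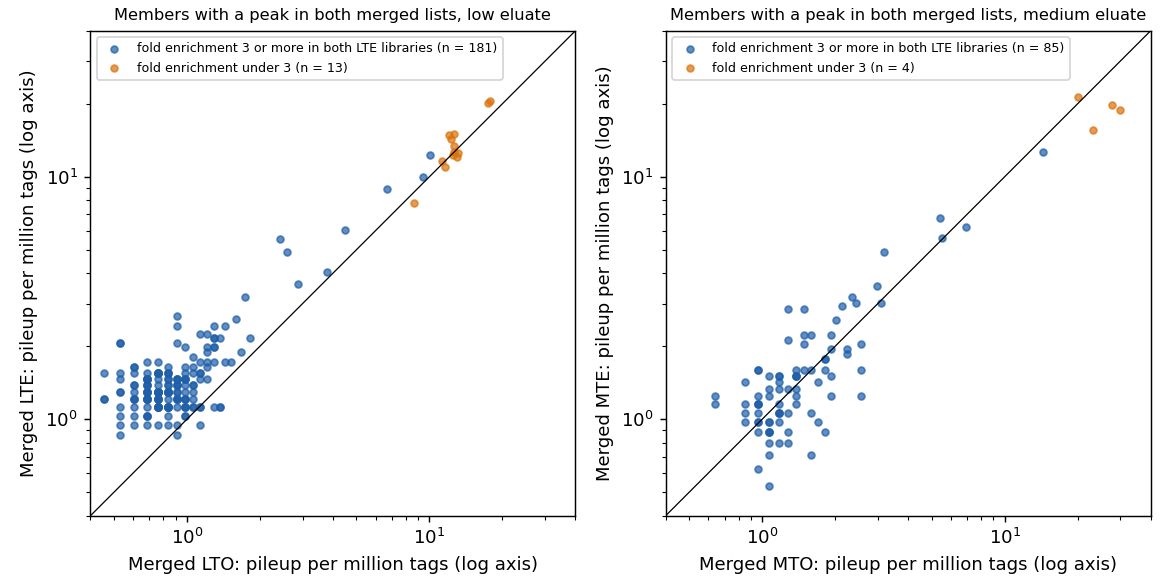
Pileup per 1000000 tags in the merged tender list against the merged tough list (log axes) for the 194 tender-specific regions with a peak in both low lists (left) and the 89 with a peak in both medium lists (right), with the line of equal values. On the left 182 points lie above the line, and on the right 46 do.

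In the merged medium lists the tender-specific regions had a peak more often in tender than in tough beef, and in tender about as often as the other low regions. The merged MTE list held 164 of the 250 regions (65.6%) and the merged MTO list 90 (36.0%), against 67.7 and 53.7% of all other low regions and 78.2 and 60.1% of regions with 1 low library of each beef. The merged HTE and HTO lists held 30 (12.0%) and 23 (9.2%), against 25.4 and 21.9%, so tender was above tough there, the opposite of the order of the means of the single high libraries. A merged peak in MTE and none in MTO was found in 75 of the 250 regions (30%, against 17.8% of all other low regions). The reverse was found in 1 region (0.4%, against 3.80%). On the autosomes the merged MTE list held 84367 peaks and the merged MTO list 55808, and the part of peak number was not tested.

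The regions of highest enrichment differed in how far they reached into the medium eluate. The highest lower fold enrichment was at chr1:69958996-69959543, with pileups of 13 in LTE_1 and 17 in LTE_2, at fold enrichments of 9.26 and 10.3. It had medium peaks of 10 and 8 tags in MTE_1 and MTE_2 and none in the MTO or high libraries, and merged pileups of 24 in LTE, 7 in LTO and 17 in MTE. Its nearest LTO peak was 55593 bp away, so it was tender-specific at both levels and isolated. Next came chr1:85499562-85499763, with 10 and 12 tags in the LTE libraries and no peak in the 8 other libraries. At chr22:59374035-59374259 the LTE pileups were 12 and 14 and the MTE pileups 15 and 14, with no peak in MTO, but the merged LTO list held a peak of 17 tags beside 25 in LTE. The region chr20:13172359-13172579 had 10 and 10 tags in the LTE libraries and a peak of 9 tags in MTE_1 alone. The fifth, chr8:56891336-56891506, with 10 and 10 tags in LTE and 11 and 9 in MTE, lay 3 bp from an LTO peak and had 21 tags in each of the merged MTE and MTO lists.

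Peaks in both MTE and no tough library were found in 18 regions, and the strongest of them were of unlike kinds. The largest pileups were at chr3:82795075-82795268, 102 and 116 tags in LTE and 154 and 163 in MTE, but its fold enrichments in LTE were 2.07 and 1.90. The merged MTO list had a peak of 282 tags there, and an LTO peak lay 152 bp away. At chr10:102096065-102096334 the LTE libraries had 15 and 18 tags and the MTE libraries 14 and 19, and neither the single nor the merged tough lists held a peak, which set it apart from the other regions named here with peaks in both MTE libraries. At chr14:83719937-83720194 the pileups were 12 and 13 in LTE and 11 and 15 in MTE, and the merged lists had peaks in both beefs, of 25 tags in LTE and 18 in LTO.

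Peaks in both beefs in the medium and high eluates were found in 40 regions. A peak in all 8 of these libraries was found in 2 (0.8%, against 11.1% of all other low regions). The region chr13:1250268-1250520 had 23 and 27 tags in LTE and a peak in all 8 medium and high libraries, where the tender libraries gave 68 and 65 tags (high) and 49 and 38 (medium), and the tough libraries 38 and 35 (high) and 45 and 31 (medium). Its counterpart chr13:79447603-79447757 had 8 and 8 tags in LTE, with 27 and 42 (high) and 19 and 26 (medium) in the tender libraries and 19 and 24 (high) and 16 and 15 (medium) in the tough ones. LTO peaks lay 197 and 250 bp from them, so tough tags were found beside these regions in the low eluate too.

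The largest pileups without any medium or high peak all belonged to regions of low enrichment. They were 221 and 225 tags at chr7:56589144-56589339, 194 and 230 at chr24:56932661-56932868 and 125 and 154 at chr8:74604648-74604865 in LTE_1 and LTE_2. The merged lists had 239 tags in LTE and 234 in LTO at the chromosome 7 region and 174 and 166 at the chromosome 8 region, and none of the 6 merged lists had a peak at the chromosome 24 region.

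By single libraries, 3 regions were tough-specific at another level, but the merged tender list of that level had a peak at each of them. At chr6:45769998-45770182, with 87 and 109 tags in LTE, the MTO libraries had 212 and 196 tags and the MTE libraries no peak, and all 4 high libraries had a peak of 204 to 221 tags. The merged MTE list had a peak of 222 tags there. At chr16:72401689-72401900, with 8 and 8 tags in LTE, MTO had 10 and 7 tags and no other medium or high library a peak, and the merged MTE list had 10 tags. At chr4:112360970-112361144, with 7 and 7 tags in LTE, HTO had 9 and 10 tags and HTE none, while all 4 medium libraries had 11 to 14 tags. The merged HTE list had a peak of 9 tags there.

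The tender-specific regions were spread over the genome. Each of the 29 autosomes held 2 to 16 of them, with a median of 9. Chromosomes 8 and 18 held 16 each, and chromosomes 4, 5 and 13 held 12 each. Relative to their low regions, chromosome 18 (0.861%, Wilson interval 0.531 to 1.39%), chromosome 8 (0.678%) and chromosome 15 (0.665%) had the largest shares, and chromosome 12 the smallest (0.128%, 2 regions). For 27 of the 29 chromosomes the interval held the overall 0.500%. Neighbouring regions were a median of 5.51 Mb apart, with 38 of 221 gaps under 1 Mb, 7 of them between the regions of low enrichment. Tough peaks were near many of the regions, at a median distance of 11272 bp, with 52 (20.8%) within 1 kb and 133 (53.2%) beyond 10 kb.

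**Figure D5:**
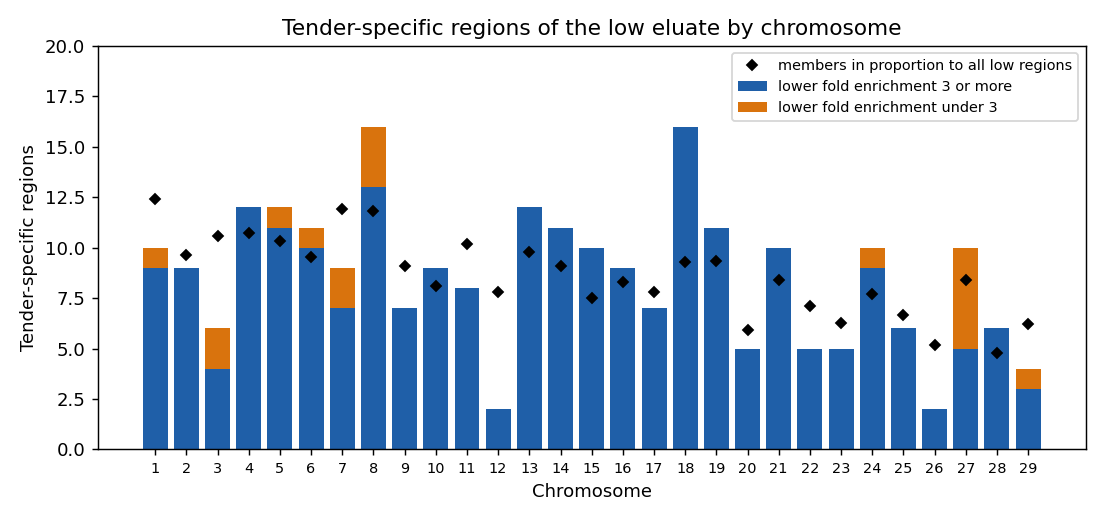
Bars give the number of tender-specific regions on each autosome, with those of low LTE enrichment stacked on top, and diamonds the number in proportion to all low regions of the chromosome. Chromosomes 8 and 18 hold 16 regions each, and 5 of the 10 regions on chromosome 27 are of low enrichment.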

How the data were processed

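MBD-seq libraries of longissimus muscle DNA were sequenced for 2 tender and 2 tough animals and 3 eluates, 12 libraries in all. The authors cleaned reads with SOAPnuke, aligned them with BWA (0.7.7 in the submitters' processing notes) to bosTau8, and used MACS2 for peak calling with no control (q-value 0.01, 1 tag per position, regional background of 10000 bp), version 2.1.1.20160309 for single libraries and 2.1.0.20150731 for merged replicates. The deposited lists give the pileup (the tag signal at the summit, unscaled), the fold enrichment (its ratio to the background nearby) and the −log10 of the p-value and q-value. Without duplicates, libraries held between 3677473 and 7981292 tags, and depth is part of which peaks were called.

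Peaks were joined and counted in Python (3.11.15) using pandas (2.3.3), numpy (2.4.6) and scipy (1.17.1). The overlap code was checked with bedtools 2.31.1 and tested on simulated data. Pileup was scaled to 1000000 tags for comparisons between libraries. Two-sided exact permutation tests over libraries compared groups, 13 in all, and Wilson intervals are at the 95% level and cover counting error only. The replicates are separate animals. The main tests did not pair libraries by replicate number. Deviations of same-numbered libraries over the low regions correlated at -0.004 to 0.076, which does not decide whether they came from the same animal. Pairing by number was used in the replicate block and in the medium minus high differences given for each replicate. The regions and the rules for naming them were chosen with earlier results of these data known. Named were the 5 regions of highest lower LTE fold enrichment, the 5 of highest lower LTE pileup among those with both MTE and no tough peak, those with a peak in all 8 medium and high libraries, the 3 of highest pileup with none, those tough-specific at another level, regions on either side of the threshold, and chromosomes by number and share. Read counts, genes, CpG islands and sequences were not analysed here.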

Additional observations from a re-analysis of the deposited data

Results flagged for a closer look

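Chromosome X lay outside the autosomes on which the regions were defined. By the same criterion, 7 of its 1337 low regions (0.524%, 95% Wilson interval 0.254 to 1.08%) had a peak in both LTE and neither LTO library. That share was close to the 0.500% of the low regions of the autosomes. The comparisons above did not use the 7 regions. Of the 7, 3 had a peak in at least 1 MTE library, 1 in at least 1 MTO library and 3 in at least 1 high library, and 5 had a peak in the merged LTO list.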

How the results depend on the processing

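The higher medium share in tender animals kept its direction under every alternative, and the alternatives with a fold enrichment of at least 3 for members only and with ratios of shares were chosen after seeing the data. With each low library left out in turn, the number of regions was 491 to 5610, where the rule asks for fewer libraries and the set grows by construction. With each library that a measure uses left out in turn, the medium tender minus tough difference was 7.58 to 22.1 percentage points. Its excess over other low regions was -2.59 to 12.7. The same ranges were -1.4 to 0.51 and -1.74 to 0.040 at the high level, 9.85 to 25.3 for medium minus high and -11.9 to 4.74 for its excess, and, for the log2 pileup ratio, -0.15 to 0.17 in the medium eluate and -0.22 to 0.59 in the high one. Single reversed values were, for the high difference, 0.2 without HTE replicate 1, 0.196 and 0.253 without LTE replicates 1 and 2, and 0.509 and 0.168 without LTO replicates 1 and 2, for its excess 0.040 without LTO replicate 1, for the high pileup ratio -0.14 and -0.22 without LTE replicate 2 and LTO replicate 2, for the medium pileup ratio -0.03 without LTO replicate 1, -0.15 without MTE replicate 2 and -0.08 without MTO replicate 2, and for the medium minus high excess 1.41 and 4.74 without LTO replicates 1 and 2. Members tender-specific and tough-specific numbered 23 to 176 and 2 to 13 at the medium level, and 1 to 11 and 2 to 6 at the high level. Shares in merged lists were 5.74 to 20.8% (HTE), 3.83 to 13.6% (HTO), 95.1 to 99.8% (LTE), 54.4 to 89.4% (LTO), 44.7 to 73.3% (MTE) and 26.4 to 47.3% (MTO).

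With −log10 q of at least 5, the high difference was 0.51 percentage points, 2 and 0 members were tender- and tough-specific at the high level, the medium minus high excess was -4.93 (exact permutation p = 0.0286, as without LTE replicate 1 or 2, against 0.4) and 83.7% were in the merged LTO list. With a fold enrichment of at least 3, the high log2 pileup ratio was -0.29 and merged shares were 18.0% (HTE), 15.7% (HTO) and 100% (LTE). When asked of members only, 1 member was tough-specific at the medium level and 100% were in the merged LTE list. With an overlap of 50% the high difference was 0.198 and 1 member was tough-specific at the medium level. With peaks up to 500 bp apart joined, 1 was tough-specific at the medium level and 0 and 0 specific at the high level. With chromosome X, 2 were tender-specific at the high level. With equally many peaks from each library of an eluate, in all 3 eluates, there were 492 members. Of these, 4 were tough-specific at the medium level and 5 and 2 tender- and tough-specific at the high level. The high difference was then 0.711, its excess 0.966, the high log2 pileup ratio -0.16 and the medium minus high excess 3.77. Merged shares were then 27.2% (HTE), 22.6% (HTO), 94.1% (LTO), 80.1% (MTE) and 54.9% (MTO). With the merged lists, 75 and 1 members were tender- and tough-specific at the medium and 14 and 7 at the high level, and the high difference was 2.8. The 14 and 7 were 5.6 and 2.8% of the members, near the 5.93 and 2.37% of all other low regions. On the ratio scale the medium minus high excess was 1.16 (log2), with an exact permutation p of 0.0286, or 0.125 with the replicate block. With the replicate block, the medium minus high difference of 17.5 had an exact p of 0.125, and the block changed no other planned call. The cause of these changes was not tested, apart from fewer or more peaks entering by construction. Regions with few tags limit the comparison, since a pileup of 5 tags was enough for a peak.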
